A study of Mus musculus with 79 samples.

Results

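The slow fibre contractile genes described here are 10 transcripts of the type I, or slow, muscle fibre: Myh7, Tnni1, Tnnt1, Tnnc1, Myl2, Myl3, Atp2a2, Casq2, Myoz2 and Tpm3. They were chosen by name, as the rows of the quadriceps array whose gene symbol is one of these 10. No measured value entered that rule, although earlier results of these data were known when the genes were chosen. Together they hold 13 of the 35556 probesets, and 10 of the 22335 named genes of the array. Myh7 has a second probeset and Tpm3 has 3 in all, and the probeset with the highest mean stood for each gene.

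The question asked of these genes was how far they vary among strains of the BXD family, whether they move together, and whether diet shifts them. Every BXD line is an inbred strain with its own fixed mosaic of 2 parental genomes, those of C57BL/6J and DBA/2J. Quadriceps RNA was measured on 79 arrays, 42 from the chow diet (CD, Harlan 2018) and 37 from the high fat diet (HFD, Harlan 06414). All animals were males of 29 weeks that had been fasted overnight, anaesthetised under isoflurane and perfused, and the HFD cohorts had received their diet from 8 weeks of age. The CD arrays covered 40 BXD strains and both parents, and 37 of these 42 strains also had an HFD array. Each array carried RNA of about 5 animals of one strain and diet, extracted singly and then pooled, so there was 1 array per strain and diet. Strain and array therefore cannot be told apart within a diet, and nothing is known of how animals of one strain differed. Values are scores in units, on a log-type scale that the depositors set to a mean of 8.0 and an SD of 2.0 within each array. Differences are given in units and not as folds, because the log base is not given in the sources used here. The brightness of different probesets cannot be compared, so levels are ranked only between arrays for the same gene, and a score that is called high or dim is only placed on the scale of the array.

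Slow fibres contract slowly, resist fatigue and rely on oxidative metabolism, and mouse quadriceps is built mostly of fast fibres, with slow fibres concentrated in its deep part. The contractile apparatus of slow fibres uses its own isoforms of proteins that fast fibres also contain. Myh7 encodes the slow (beta) myosin heavy chain, and Myl2 and Myl3 its regulatory and essential light chains. Tnni1, Tnnt1 and Tnnc1 encode the slow inhibitory, tropomyosin-binding and calcium-binding subunits of troponin, and Tpm3 encodes the slow tropomyosin. Atp2a2 encodes SERCA2, the calcium pump of the slow sarcoplasmic reticulum, and Casq2 encodes the calsequestrin that stores calcium there. Myoz2 encodes calsarcin-1, a Z-disc protein that binds calcineurin. Several of these genes are shared with heart muscle.

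Because these genes are known to be transcribed together, the sequence in front of their transcription starts was searched for motifs of muscle transcription. RefSeq promoter windows (build GRCm38.p6) were matched by symbol for 9 of the 10 genes, 13 windows in all, and the 250 bases before each start were searched on both strands. The motifs were the MEF2 and CArG consensus motifs, M-CAT (CATTCC), the E-box (CANNTG) and the TATA box (TATAAA). An M-CAT match lay before Myh7, Tnnc1 and Myl3, where 12.6% of all 32851 mouse windows hold one. A MEF2 match lay before Casq2 and Myoz2, against 2.92% of all windows. These 5 windows are printed below because they hold the matches to both motifs, which are in capitals.
Myh7, chr14:54994627-54994876, minus strand: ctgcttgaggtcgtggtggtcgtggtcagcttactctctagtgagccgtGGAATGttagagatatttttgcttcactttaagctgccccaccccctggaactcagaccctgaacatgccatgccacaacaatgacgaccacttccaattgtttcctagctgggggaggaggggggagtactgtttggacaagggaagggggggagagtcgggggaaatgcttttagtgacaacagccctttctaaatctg
Tnnc1, chr14:31208062-31208311, plus strand: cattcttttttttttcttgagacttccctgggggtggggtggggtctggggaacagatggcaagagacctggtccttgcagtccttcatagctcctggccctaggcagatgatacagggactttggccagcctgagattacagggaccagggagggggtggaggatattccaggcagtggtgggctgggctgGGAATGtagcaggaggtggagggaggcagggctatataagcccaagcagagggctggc
Myl3, chr9:110763428-110763677, plus strand: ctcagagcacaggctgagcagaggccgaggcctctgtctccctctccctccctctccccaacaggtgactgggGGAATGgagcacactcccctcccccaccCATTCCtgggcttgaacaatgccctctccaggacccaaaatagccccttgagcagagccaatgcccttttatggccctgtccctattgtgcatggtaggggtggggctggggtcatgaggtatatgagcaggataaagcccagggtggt
Casq2, chr3:102086165-102086414, plus strand: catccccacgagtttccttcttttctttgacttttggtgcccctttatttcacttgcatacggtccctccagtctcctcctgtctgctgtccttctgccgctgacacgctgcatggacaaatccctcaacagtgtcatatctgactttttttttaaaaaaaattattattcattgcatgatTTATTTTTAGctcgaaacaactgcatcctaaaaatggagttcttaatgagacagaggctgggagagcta
Myoz2, chr3:123034988-123035237, minus strand: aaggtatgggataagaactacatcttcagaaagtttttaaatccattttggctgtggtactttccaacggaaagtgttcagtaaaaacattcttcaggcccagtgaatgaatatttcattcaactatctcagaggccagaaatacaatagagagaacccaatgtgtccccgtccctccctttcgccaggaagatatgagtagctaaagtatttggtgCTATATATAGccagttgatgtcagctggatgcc
No match in the 13 windows overlapped a match to another motif. The Myl3 window also held a CArG match, a motif found in 1.47% of all windows. TATA matches lay before Tnnt1 and Myl2, against 12.4% of all windows. E-boxes were found in all 13 windows, but they occur in 66.2% of windows overall. A match is a description of letters, and binding was not measured.

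The arrays carried the transcripts of skeletal muscle at high scores on both diets, with mean scores on CD of 15.17 for Acta1 (skeletal actin), 15.08 for Ckm (muscle creatine kinase), 14.80 for Myh4 (the IIB myosin), 14.68 for Ttn (titin) and 14.06 for Des (desmin). One HFD array stood apart for several of the slow genes. The BXD56 array on HFD gave the lowest HFD score of 5 of the 10 genes, Myl2, Myl3, Atp2a2, Casq2 and Myoz2. Its Myoz2 score was 8.58, where the same strain gave 11.47 on CD. Without it, the span from the lowest to the highest HFD score shrank from 3.17 to 1.91 units for Myoz2 and from 2.30 to 1.51 for Casq2, and by less than 1.5 times for the other 8 genes.

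Myh7 varied widely across strains on both diets. On CD, Myh7 ranged from 8.01 in BXD75 through a median of 9.21 to 10.91 in BXD51, with a mean of 9.34 ± 0.89 (SD, n = 42). On HFD, it ranged from 7.95 in BXD79 through 9.06 to 10.92 in BXD44, with a mean of 9.27 ± 0.73 (SD, n = 37). The ranges on both diets thus overlapped almost completely, and different strains stood at their ends. For orientation, 99.8% of all probesets had a smaller SD than Myh7 across the CD arrays, and 99.3% across the HFD arrays. In a bulk sample, fewer slow fibres and less slow transcript per fibre cannot be told apart.

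The troponin subunits spread in the same way. Tnni1 ranged on CD from 8.18 through a median of 9.04 to 10.79, and on HFD from 8.06 through 8.84 to 10.31. Tnnc1 ranged on CD from 8.06 through 9.39 to 11.30, and on HFD from 8.22 through 9.02 to 10.87. For all 3 subunits the CD arrays extended higher than the HFD arrays. Tnnt1 had the narrowest range of these subunits, from 7.90 to 10.17 on CD and from 7.70 to 9.68 on HFD, with medians of 8.93 and 8.58.

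Of the light chains, Myl3 had the widest span of the 10 genes from the lowest to the highest array on either diet. Between the 10th and 90th percentiles it was also the widest on HFD (2.58 units), but on CD its 2.44 units lay below those of Myl2 (2.60) and Tnnc1 (2.55). Over all arrays it ran on CD from 7.99 in BXD75 through a median of 9.96 to 11.76 in BXD50, and on HFD from 7.48 in BXD56 through 9.69 to 12.15 in BXD44. Its SD was 1.02 on CD and 1.08 on HFD. Myl3 was the only one of the 10 genes whose SD was not larger on CD. For comparison, 36.6% of all probesets had the larger SD on CD, and the difference in SD was not tested. Myl2 ranged on CD from 7.90 through 9.62 to 11.09, and on HFD from 7.47 through 9.16 to 10.49.

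Among the calcium handling and Z-disc genes, the SD on CD was 0.70 for Atp2a2, 0.65 for Myoz2 and 0.48 for Casq2. Atp2a2 ranged on CD from 10.33 through 11.38 to 12.78, and on HFD from 10.34 through 11.33 to 12.48. Casq2 ranged on CD from 8.32 through 9.27 to 10.15, and on HFD from 8.19 through 9.47 to 10.48. The lowest HFD value of both was that of BXD56, and BXD44 gave the highest. Myoz2 ranged on CD from 9.26 in BXD81 through 10.86 to 12.10, and on HFD from 8.58 through 10.86 to 11.75. The low end on HFD was the BXD56 array alone, and the next lowest Myoz2 score was 9.83, in BXD75. Of the probesets that stand for the genes, that of Tpm3 varied least, from 9.98 through 10.47 to 10.83 on CD and from 10.27 through 10.61 to 10.90 on HFD. Its SD of 0.20 on CD exceeded that of 67.9% of all probesets and its SD of 0.17 on HFD that of 50.9%. What this probeset reads is uncertain, as described below. Another Tpm3 probeset, numbered among genes of chromosome 3, had an SD of 0.46 on CD and 0.38 on HFD. The remaining Tpm3 probeset had an SD of 0.13 on CD and 0.20 on HFD.

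**Figure D1:**
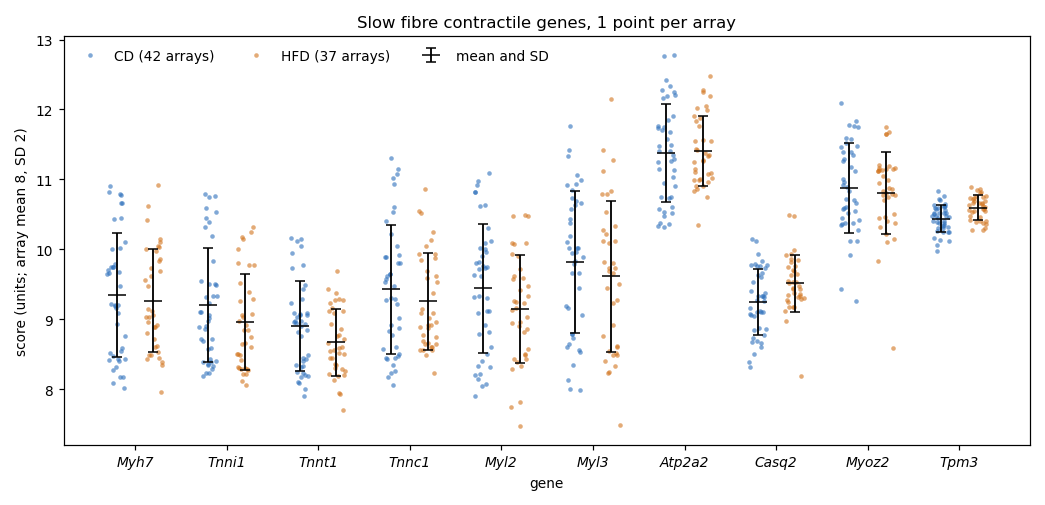
Score of each of the 10 slow fibre contractile genes (horizontal axis) in units (vertical axis), 1 point per array, for 42 CD arrays (blue) and 37 HFD arrays (orange); black lines are the mean and SD. The clouds of both diets overlap for every gene, with Myl3 spanning the widest range (7.48 to 12.15 on HFD) and the probeset that represents Tpm3 the narrowest.

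The slow genes rose and fell together from array to array. With Myh7 as the reference, all 9 other genes correlated with it on CD, with r between 0.675 for Casq2 and 0.971 for Myl2 (Pearson, batch means removed, n = 42). Each reached the smallest p that 100000 permutations can give, 1e-05, and an adjusted p of 0.00487 over all 35555 other probesets. Over the array, 0.428% of probesets were called with a positive r to Myh7 on CD and 0.18% with a negative r. Spearman rho called the same number, 9 of 9, with rho between 0.661 for Casq2 and 0.976 for Myl2. Leaving out the 2 arrays farthest from the Myh7 median gave r between 0.692 and 0.967.

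Within this set, Myh7, the 3 troponin subunits, Myl2, Myl3 and Atp2a2 were the most tightly linked. Over the 21 pairs of these 7 genes, r on CD ran from 0.811 to 0.974 with a median of 0.938. The troponin subunits Tnnt1 and Tnnc1 gave the highest r of any pair, 0.974. On HFD the same 21 pairs ran from 0.764 to 0.949 with a median of 0.886. Over all 45 pairs of the 10 genes, r on CD ran from 0.576 to 0.974, and one principal component carried 83.2% of their standardised variance. On HFD the 45 pairs ran from 0.231 to 0.949, and the share of the first component was 73.3%. These pairs are given as a description, and all of them share the same arrays.

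On HFD 6 of the other genes were again called with Myh7, and Casq2, Myoz2 and the probeset that represents Tpm3 had lower r. The r with Myh7 was 0.949 for Tnnc1, 0.898 for Tnni1, 0.894 for Tnnt1, 0.892 for Myl2, 0.887 for Atp2a2 and 0.764 for Myl3 (n = 37). These 6 genes were called, each with a permutation p of 1e-05 and an adjusted p of 0.0444. The array as a whole held 0.0225% of probesets called with a positive r to Myh7 on HFD, and 0% with a negative r. Since 1e-05 is the smallest p possible, 8 probesets had to reach it for any to pass, and exactly 8 did. They were these 6 genes, another probeset of Tpm3 and Myh6, the alpha myosin. With limma and Myh7 as a covariate, a test chosen after the data were seen, the same 6 genes were called, with adjusted p from 2.07e-15 for Tnnc1 to 6.83e-05 for Myl3. By that test, 0.0225% of probesets were called positive and 0% negative on HFD, and 0.422% positive and 0.146% negative on CD. Spearman rho over the HFD arrays called 0 of the 9 genes after adjustment, although all 9 had an unadjusted p below 0.05.

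Casq2, Myoz2 and the probeset that represents Tpm3 did not pass on HFD. The Tpm3 probeset numbered among genes of chromosome 3 did pass (r = 0.884, adjusted permutation p = 0.0444), and the remaining Tpm3 probeset did not (r = 0.372). Casq2 had an r with Myh7 of 0.498 (permutation p = 0.00114, adjusted p = 0.655), Myoz2 of 0.522 (p = 0.00051, adjusted p = 0.504) and Tpm3 of 0.422 (p = 0.00905, adjusted p = 0.837). On CD the corresponding values were 0.675, 0.781 and 0.726. The difference in r between the diets was not tested. Casq2 and Myoz2 correlated with each other at 0.819 on HFD and at 0.723 without BXD56, whose array was low for both. Leaving out BXD56 moved the r of Myh7 with Casq2 to 0.483 and with Myoz2 to 0.533, and limma still called 6 of the 9 genes.

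Values were also taken within each of the 2 array batches named in the sample titles. On CD the r with Myh7 in batch 1 (n = 18) ran from 0.676 for Casq2 to 0.977 for Myl2, and in batch 2 (n = 24) from 0.678 for Casq2 to 0.973 for Tnni1. On HFD it ran in batch 1 (n = 17) from 0.275 for Tpm3 to 0.975 for Tnnc1, and in batch 2 (n = 20) from 0.557 for Casq2 to 0.910 for Tnnc1. The r was positive for all 9 genes in each batch on each diet. The array median, a measure of scaling, correlated with Myh7 at 0.13 on CD (permutation p = 0.408) and at 0.05 on HFD (permutation p = 0.766), with rho of 0.129 (permutation p = 0.412) and -0.026 (permutation p = 0.876).

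**Figure D2:**
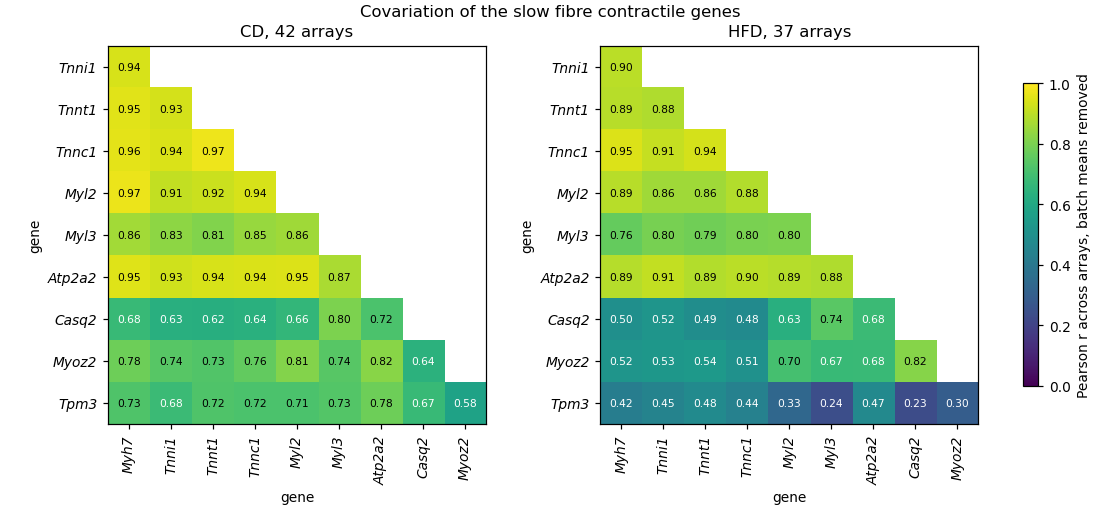
Pearson r between each pair of the 10 slow fibre contractile genes across the CD arrays (left) and the HFD arrays (right) after batch means were removed, by colour and in figures; genes are on both axes. On both diets the block of Myh7, troponins, light chains and Atp2a2 stays at 0.76 or above. The rows of Casq2, Myoz2 and the probeset that represents Tpm3 partly overlap the block but reach lower, down to 0.576 on CD and 0.231 on HFD.

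The probesets of Tpm3 and of Myh7 did not all behave alike. The Tpm3 probeset with the highest mean, which represents the gene, is numbered among genes of chromosome 14. RefSeq places a pseudogene, Tpm3-rs7, on that chromosome between the named neighbours Slitrk5 and Mir17hg, while Tpm3 itself is on chromosome 3. Which of these sequences the probeset reads was not tested, and its values are uncertain for that reason. A different Tpm3 probeset, numbered among genes of chromosome 3, followed Myh7 more closely, with r of 0.923 on CD (permutation p = 1e-05, adjusted p = 0.00487) and 0.884 on HFD (permutation p = 1e-05, adjusted p = 0.0444). It ranged from 9.86 through a median of 10.50 to 11.58 on CD and from 9.67 through 10.26 to 11.46 on HFD. The r between both Tpm3 probesets was 0.762 on CD and 0.51 on HFD. The second Myh7 probeset was dim, with a mean score of 7.23 on CD where the median over all probesets and arrays was 7.86, and its r with the first was 0.536 on CD and 0.442 on HFD.

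Genes of the slow and oxidative programme accompanied Myh7 on CD. Of 9 further genes linked to slow fibres, 6 were called with a positive r on CD: Actn2, a Z-disc actinin (r = 0.794), Mb, which encodes myoglobin (0.691), Mybpc1, the slow myosin binding protein C (0.664), Pln, the inhibitor of SERCA2 (0.615), Csrp3 (0.572) and Ankrd2 (0.569). Spearman rho called the same genes apart from Csrp3 (rho = 0.533, adjusted permutation p = 0.0601). Myh7b, Sln and Myl6b did not pass, with r of 0.486, 0.315 and 0.088. On HFD 0 of these 9 genes were called by the permutation test or by limma. This is near the share over the array, 0.0225%, where 0.428% of probesets were called positive on CD. Their r lay between 0.145 and 0.592 (Pln), and before adjustment 4 of the 9 had a p below 0.05.

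Fat oxidation genes behaved likewise on CD. Of 12 such genes, 8 were called with a positive r to Myh7 on CD, led by Lpl, the lipoprotein lipase (r = 0.718), Fabp3, the muscle fatty acid binding protein (0.681), Cpt1b, which passes fatty acids into mitochondria (0.675) and Hadhb, a subunit of the trifunctional protein (0.649). On HFD, 0 of the 12 were called by either test, 3 had an unadjusted p below 0.05, and their r lay between 0.046 and 0.383. The shares of all probesets called positive were 0.428% on CD and 0.0225% on HFD, so that 0 of 12 on HFD is near the array as a whole. The median r over the 12 genes was 0.618 on CD and 0.228 on HFD. Whether these r differ between the diets was not tested.

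No fast fibre gene was called with a negative r to Myh7, although Tnnc2, Actn3 and Pvalb had a negative r with an unadjusted p below 0.05 on CD (r = -0.358, -0.35 and -0.336). Over the array, 0.18% of probesets were called with a negative r on CD and 0% on HFD, so 0 of 13 is near that share. Of 13 fast genes, 2 were called on CD and both had a positive r with Myh7: Myh2, the oxidative IIA myosin (r = 0.736), and Myh1, the IIX myosin (0.649). Myh4, the myosin of the fastest fibres, had an r of -0.21 (permutation p adjusted to 0.747), and its scores on CD spread little (mean 14.80, SD 0.05). The adjusted p of Tnnc2, the fast calcium-binding troponin, was 0.388. On HFD 0 of the 13 were called by the permutation test or limma, and 1 had an unadjusted p below 0.05. The shares of all probesets called positive by permutation were 0.428% on CD and 0.0225% on HFD, so 0 of 13 on HFD is near the array as a whole. The 10 sarcomere genes shared by all fibre types, such as Acta1 and Ttn, held 0 called on either diet by these tests (2 with an unadjusted p below 0.05 on CD and 0 on HFD), with a median r of -0.112 on CD and -0.037 on HFD. That count is also near the shares over the array.

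Among 11 regulators of fibre type, 1 was called on CD, with a positive r, and 0 on HFD. Over the array, 0.428% of probesets were called positive and 0.18% negative on CD, and 0.0225% and 0% on HFD. Esrrg, the nuclear receptor ERR gamma, which drives oxidative genes, had an r with Myh7 of 0.741 on CD (adjusted p = 0.00487) and 0.53 on HFD (adjusted limma p = 0.615). Sox6, a repressor of slow genes, had an r of -0.514 on CD (adjusted permutation p = 0.0719) and -0.077 on HFD. Eya1, a cofactor of the fast programme, had an r of -0.502 on CD (adjusted permutation p = 0.0942) and -0.012 on HFD. Ppargc1a, the coactivator PGC-1 alpha, had an r of -0.076 on CD and 0.184 on HFD.

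Markers of other cell types were set beside the slow genes. The 7 adipocyte markers had r with Myh7 between -0.228 and 0.149 on CD, and between -0.399 and -0.238 on HFD. Of these, 0 were called by the permutation test or limma, and 0 on CD and 5 on HFD had an unadjusted p below 0.05. Their mean score ran from 9.27 to 10.96 over the CD arrays and from 9.43 to 11.43 over the HFD arrays. Of 4 tendon markers, 3 had r between 0.472 (Tnmd) and 0.522 (Fmod) on CD, while Scx had -0.022. The 3 did not pass the permutation test of r or limma after adjustment, but Spearman rho called Tnmd (rho = 0.605, adjusted permutation p = 0.0162) and Fmod (rho = 0.558, adjusted permutation p = 0.0434) on CD. Their mean score ran from 9.30 to 10.63 on CD and from 9.24 to 10.66 on HFD. Among 5 heart markers, Myh6 alone was called, with r of 0.841 on CD and 0.658 on HFD, and the other heart markers (Nppa, Nppb, Tnnt2, Tnni3) lay between 0.063 and 0.337 on CD. Myh6 lies beside Myh7 and is nearly identical to it in sequence, so its probeset may share signal with Myh7 and its value is uncertain. The markers of red blood cells, macrophages, endothelium, fibroblasts, Schwann cells, smooth muscle and satellite cells held 0 called on either diet by the permutation test or limma. Over the array, 0.428% of probesets were called positive and 0.18% negative by permutation on CD, and 0.0225% and 0% on HFD. The counts of 0 in these lists and among the adipocyte markers are near those shares. Before adjustment, 3 Schwann cell markers and 1 red blood cell marker had a p below 0.05 on CD, as had 1 marker each of macrophages, fibroblasts, Schwann cells and satellite cells on HFD. Among these lists the highest r on CD was 0.466, for Mbp of Schwann cells (adjusted p = 0.126). The part of these markers in the covariation was not tested.

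**Figure D3:**
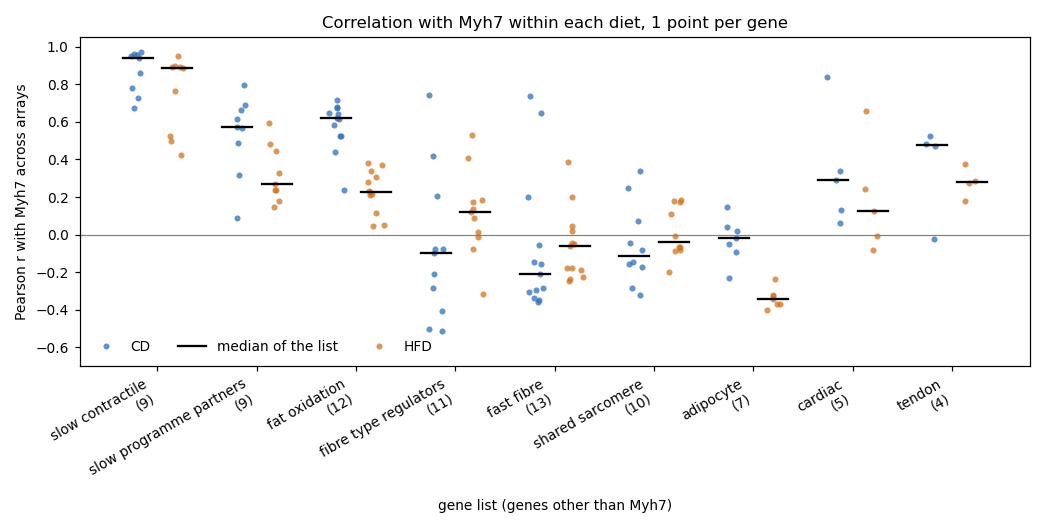
Pearson r with Myh7 across arrays (vertical axis) for the genes of 9 lists (horizontal axis, number of genes in brackets), on CD (blue, 42 arrays) and HFD (orange, 37 arrays); black lines are list medians. The slow contractile genes sit highest on both diets, with medians of 0.94 on CD and 0.887 on HFD, and the fat oxidation genes have a median of 0.618 on CD and 0.228 on HFD.

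The transcripts most like the slow genes were found by correlation with the mean of the 10 standardised genes over the 42 CD arrays. The 5 highest of 22325 other genes were Myom3, an M-band protein of the sarcomere (r = 0.888), Actn2 (0.859), Ldhb, the lactate dehydrogenase of oxidative tissue (0.85), Cyfip2 (0.829) and Myh2 (0.825). Over the HFD arrays, in which they were not chosen, the same genes had r of 0.725, 0.672, 0.659, 0.729 and 0.615, and they ranked 5, 11, 15, 3 and 24 of all these genes. The 5 lowest on CD were Phka1, a subunit of muscle phosphorylase kinase (-0.762), Mical2 (-0.737), Me1, the cytosolic malic enzyme (-0.72), Msrb3 (-0.672) and Ppp3ca, a catalytic subunit of calcineurin (-0.659). On HFD their r lay between -0.435 for Mical2 and -0.378 for Msrb3. These are descriptions over arrays that share their strains and pools, and the median over all 22325 genes was 0.004 on CD and -0.022 on HFD.

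A shared order of strains on both diets was called for the probeset that represents Tpm3 and for none of the other 9 slow genes. For Myh7, the r between the CD and the HFD array of the 37 paired strains was 0.084 (permutation p = 0.621, adjusted p = 0.839), with a 95% confidence interval from -0.247 to 0.397 and rho of 0.088 (permutation p = 0.602). Among the 9 genes other than Tpm3, r lay between 0.084 and 0.276 (Myl3), with a median of 0.226, and 0 passed, nor did any have an unadjusted p below 0.05 for Pearson r. The Spearman rank correlation was 0.409 for Casq2 (permutation p = 0.0127, adjusted p = 0.0989). Across the array, 10.5% of probesets were called, so 1 of 10 is near that share. The confidence interval of Myl3 ran from -0.053 to 0.551 and that of Casq2 from -0.055 to 0.549, so these intervals do not exclude a moderate r for either gene.

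The probeset that represents Tpm3 was the 1 of the 10 that was called. Its r was 0.633 (permutation p = 4e-05, adjusted p = 0.00119; 95% confidence interval from 0.389 to 0.794), and rho was 0.632 (permutation p = 8e-05, adjusted p = 0.00239). When the 2 strains most distant from the CD median were left out, r was 0.581 (permutation p = 0.00025). The chromosome 3 probeset of Tpm3, chosen after the data were seen, had an r of 0.114 (adjusted p = 0.767), in the range of the other slow genes, and the remaining Tpm3 probeset had an r of 0.103 (adjusted p = 0.794). A limma F-test for a strain effect shared by both diets called the same gene, Tpm3 (adjusted p = 0.000102), with the other 9 genes between adjusted p of 0.131 and 0.432, and 13.6% of all probesets called. The difference between the r of Tpm3 and that of the other genes was not tested.

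The r between the diets was also taken by batch. For strains with both arrays in batch 2 (n = 17), r was 0.466 for Myh7, 0.546 for Tnnt1, 0.532 for Myl3 and 0.718 for Tpm3, and for those with both in batch 1 (n = 12) it was -0.073, 0.02, 0.25 and 0.631. For Casq2 it was 0.226 in batch 2 and 0.313 in batch 1, and for Myoz2 0.065 and 0.097. For the 8 strains with arrays in different batches, exact enumeration was used, and r was -0.091 for Myh7 and 0.415 for Tpm3. No gene of the 10 other than Tpm3 passed in any of these subsets, and Tpm3 passed only in batch 2. Before adjustment, Tnnt1, Tnnc1, Myl3 and Atp2a2 also had a p below 0.05 in batch 2 (0.0244, 0.049, 0.0249 and 0.0282 by permutation). The difference between the subsets was not tested. Leaving out the 2 strains farthest from the CD median moved the r of Myh7 to 0.213 (permutation p = 0.217).

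**Figure D4:**
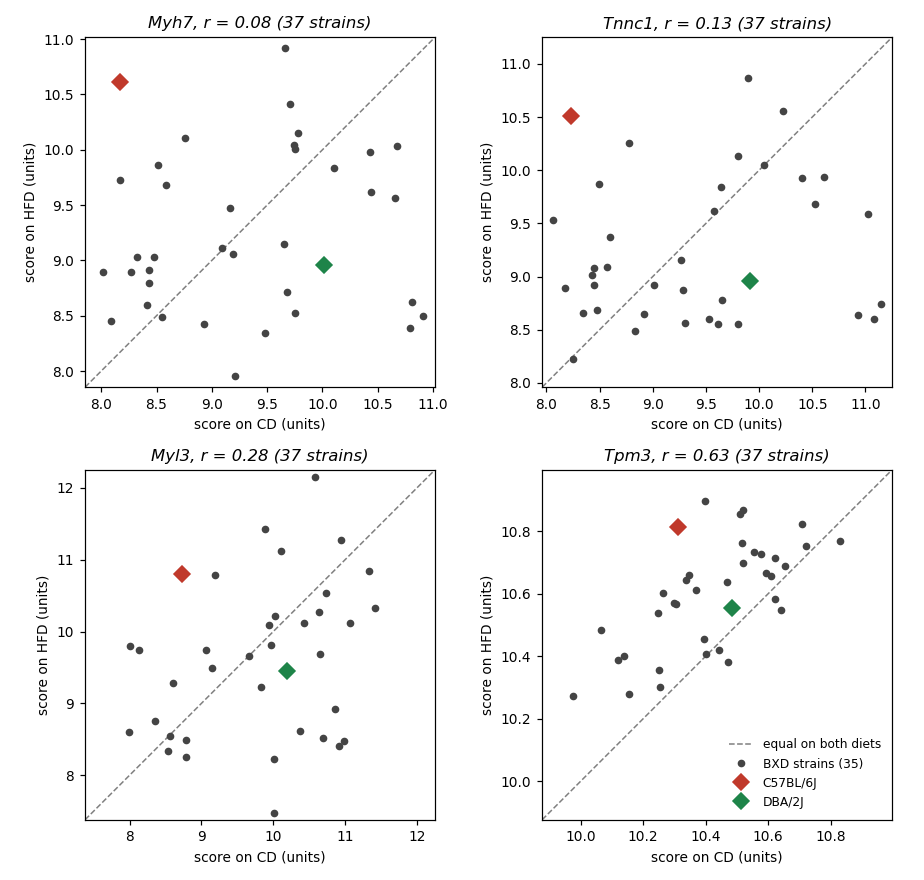
Score on HFD (vertical axis, units) against score on CD (horizontal axis, units) for Myh7, Tnnc1, Myl3 and Tpm3, 1 point per paired strain (37), with both parental strains marked and the dashed line where both diets are equal. For Myh7, Tnnc1 and Myl3 the points scatter with little order (r = 0.084, 0.129 and 0.276), while the probeset that represents Tpm3 rises along the diagonal and lies mostly above it.

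The change from CD to HFD within a strain was large for single strains and went both ways. For Myh7 it ran from -2.41 units in BXD51 to 2.44 units in C57BL/6J, with a median of 0.18, an SD of 1.11, and 20 of the 37 strains higher on HFD. The most tightly linked genes, which were picked for their correlation on these arrays, were counted first. All 7 of Myh7, the troponins, Myl2, Myl3 and Atp2a2 were higher on HFD in 12 strains, all 7 were lower in 14, and 11 strains were mixed. All 10 slow genes were higher on HFD in 9 strains and all 10 were lower in 2. In BXD84, Myh7 changed from 10.79 to 8.38, Tnnc1 by -2.48 and Myl3 by -2.51. The BXD84 array on CD was in batch 2 and that on HFD in batch 1, so diet and batch cannot be told apart in this change. In BXD66, with both arrays in batch 2, Myh7 changed from 8.17 to 9.73, Tnnc1 by 1.37 and Myl3 by 1.60. In BXD56 all 7 were lower on HFD, but by unequal amounts, as Myh7 changed by -0.50 and Tnnc1 by -0.35, against -2.27 for Myl2, -2.53 for Myl3 and -2.89 for Myoz2. Each change is a difference between 2 arrays and has no replicate.

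The parental strains crossed over between the diets. On CD, C57BL/6J scored below DBA/2J for all 10 genes, with 8.17 against 10.02 for Myh7, 8.23 against 9.92 for Tnnc1 and 8.73 against 10.20 for Myl3. On HFD, C57BL/6J scored above DBA/2J for 8 of the 10, with 10.61 against 8.96 for Myh7, 10.51 against 8.96 for Tnnc1 and 10.80 against 9.45 for Myl3. Among the arrays of its diet, the C57BL/6J array ranked 4 from the lowest of 42 for Myh7 on CD and 36 of 37 on HFD. Casq2 and Myoz2 kept DBA/2J on top, with 9.63 against 9.52 and 11.14 against 11.12 on HFD. Averaged over both diets, limma called 0 of the 10 genes between the parents, with a lowest adjusted p of 0.595 for Casq2, whose unadjusted p of 0.0484 was the 1 below 0.05. With the 4 parental arrays alone it also called 0. Of all probesets, 1.26% were called between the parents. With 1 array per parent and diet, the crossing itself was not tested.

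Of the 10 slow genes, 2 differed between the diets. Casq2 and Tpm3 were higher on HFD, the other 8 genes did not pass, and 0 were lower, where 18.9% of all probesets were called higher and 19.3% lower. No gene had an unadjusted p below 0.05 in the lower direction, and the t-test named in the study's methods also called 0 lower. The median difference of the 10 genes was -0.125 units, against -0.0007 over all probesets, and 7 of the 10 differences were negative.

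Tpm3 differed by 0.16 ± 0.04 units (SE; adjusted limma p = 0.00153), and it was higher on HFD in 32 of 37 paired strains. The CD and HFD scores overlapped widely, between 10.27 and 10.83. The difference was 0.17 in batch 1 (adjusted p = 0.0326) and 0.15 in batch 2 (adjusted p = 0.0725). The chromosome 3 probeset of Tpm3 went the other way, by -0.19 ± 0.09 units (SE; adjusted p = 0.109), with 14 of 37 strains higher on HFD. The remaining Tpm3 probeset, none of whose 10 nearest numbered neighbours is on chromosome 3, differed by -0.07 ± 0.04 units (SE; adjusted p = 0.13). Of the 3 probesets, 1 was thus called higher on HFD, and the other two had negative differences that did not pass.

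Casq2 differed by 0.27 ± 0.10 units (SE; adjusted limma p = 0.0249), and it was higher on HFD in 24 of 37 paired strains. Its scores also overlapped over most of their range. The difference was 0.32 in batch 1 (adjusted p = 0.1) and 0.23 in batch 2 (adjusted p = 0.257), so it did not pass in either batch alone. Without BXD56 it was 0.31 (adjusted p = 0.00702).

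For Myh7 the difference was -0.07 units, with a 95% confidence interval from -0.44 to 0.29 (adjusted p = 0.782). Its second, dim probeset was lower on HFD by -0.22 ± 0.05 units (SE; adjusted p = 0.000138), and the probesets thus gave one call and one miss in the same direction. The troponin differences were -0.25 for Tnni1 (interval from -0.58 to 0.09), -0.23 for Tnnt1 (-0.48 to 0.03) and -0.18 for Tnnc1 (-0.54 to 0.19). The light chains differed by -0.30 for Myl2 (-0.68 to 0.08) and -0.21 for Myl3 (-0.67 to 0.26). Atp2a2 differed by 0.03 (-0.24 to 0.30) and Myoz2 by -0.07 (-0.34 to 0.21), or by 0.01 without BXD56. The intervals give, gene by gene, the shifts that these arrays do not exclude.

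**Figure D5:**
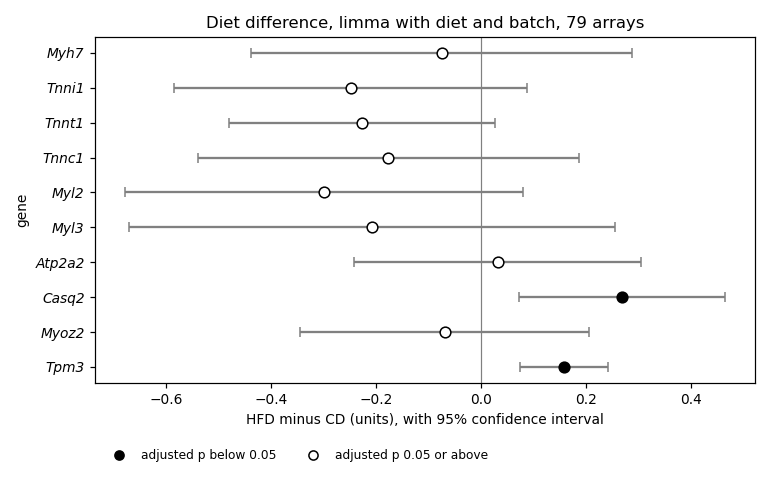
Difference between HFD and CD in units (horizontal axis) for the 10 slow fibre contractile genes (vertical axis), from limma over 79 arrays, with 95% confidence intervals; filled points have an adjusted p below 0.05. Casq2 (0.27) and Tpm3 (0.16) lie above 0, and the intervals of the other 8 genes include 0.

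Calls in the neighbouring programmes were set against the 18.9% of probesets higher and 19.3% lower over the array. Of the 12 fat oxidation genes, 10 were higher on HFD and 0 lower, with a median difference of 0.21 units, led by Fabp3 (0.42), Cpt2 (0.36), Acadl (0.33) and Cd36 (0.27), which carries fatty acids into the cell. Of the 9 further slow genes, Myl6b, an alkali light chain, rose by 0.15 and Mb rose by 0.13, while Pln fell by 0.18, Sln, sarcolipin, fell by 0.14 and Myh7b fell by 0.09. Of the 13 fast genes, Tnni2, the fast inhibitory troponin, fell by 0.10 and Myoz1, the fast calsarcin, fell by 0.08, and the other 11 did not pass. Of the 11 regulators, 1 was higher and 2 were lower, among which Eya1 rose by 0.11 and Sox6 fell by 0.11. Tcap, which caps titin, fell by 0.14 and Tpm2, the beta tropomyosin, fell by 0.11 among the 10 shared sarcomere genes.

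Markers of other cells were set beside these differences. Of 7 adipocyte markers, 5 were higher and 1 lower on HFD, with Lep, which encodes leptin, rising by 1.58 units, Cidec rising by 0.75, Adipoq rising by 0.54 and Cfd falling by 0.61 (-0.61). Of 6 macrophage markers 4 were higher, with a mean score of the list from 8.11 to 8.86 over the CD arrays and from 8.27 to 9.22 over the HFD arrays. Of 5 endothelial markers 4 were higher, with a mean score from 9.78 to 10.58 on CD and from 10.11 to 10.70 on HFD. The lists of Schwann cells (2 higher, 1 lower), satellite cells (2 higher, 1 lower), smooth muscle (2 higher, 0 lower), tendon (1 higher, 1 lower) and heart (0 higher, 1 lower) hold 3 to 5 genes each, where 18.9% of all probesets were higher and 19.3% lower, and nothing is read from these counts. The 5 fibroblast markers held 0 called by limma and 1 with an unadjusted p below 0.05. With strain as a block, 1 fibroblast marker was called (Col3a1, 0.085 units, adjusted limma p = 0.0394) and 1 of the smooth muscle calls was lost (Cnn1, 0.08 units, adjusted limma p = 0.0901). The 3 red blood cell markers on the array held 0 called by limma and 0 with an unadjusted p below 0.05. The part of these cells in the differences of Casq2 and Tpm3 was not tested.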

How the data were processed

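Quadriceps RNA of 79 pools was hybridised to Affymetrix Mouse Gene 1.0 ST arrays. The authors deposited 1 score for each probeset, rescaled per array to a mean of 8.0 and an SD of 2.0. Affymetrix Expression Console is named in the submitters' processing notes, and the log base, summarization and background method are not given in the sources used here. Array medians lay between 7.783 and 7.922. Precision is limited by the number of arrays, which have no counting depth. Tests planned on the assumption of log2 values were run on the scores as deposited. Groups came from the sample titles, and a CD column headed BXD92 was matched to the title BXD92a, as no other title fits.

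Diet differences came from limma 3.58.1 in R 4.3.3 (lmFit and eBayes) with terms for diet and for batch, over 79 arrays. The parental contrast and the strain F-test came from limma with strain, diet and batch as terms, where the parents were assumed to vary like the paired strains. Correlations used Python 3.11.15, numpy 2.4.6, scipy 1.17.1 and numba 0.67.0 after batch means were removed, with two-sided permutation tests of 100000 draws, or exact enumeration for 8 strains. All p-values were adjusted over all probesets (Benjamini-Hochberg, threshold 0.05), 1 family for each comparison. The scripts were tested on simulated data. Mixtures of 2 normal components, judged by a BIC gain of 10 and an Ashman D above 2, called no separate clusters of strains. Some gains were positive but below 10, the largest 5.21 for Myl2 on CD (Ashman D 3.25). With this few arrays the fits cannot exclude separate clusters. Pooled correlations were used throughout.

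The genes, lists and tests were chosen with earlier results of these data known. Named were all 10 genes, up to 4 called genes of each list with the largest values, and the 5 genes most and least like the mean of the 10 on CD; Ppargc1a, Myh4, Tnnc2, Actn3, Pvalb, Myh7b, Csrp3, Ankrd2, Mbp, the genes whose call the strain block changed, and the tendon and heart markers were named with their values in view. The lists were fast fibre (13 genes), slow programme partners (9), fibre type regulators (11), shared sarcomere (10), fat oxidation (12), adipocyte (7), red blood cell (3 of 4 on the array), macrophage (6), endothelial (5), fibroblast (5), Schwann cell (5), smooth muscle (4), satellite cell (3), heart (5) and tendon (4). The value of 1 regulator is not reported here.

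Arrays pair by strain name. Their deviations from the batch means within each diet correlated across probesets between -0.131 and 0.392, with a median of 0.205, above 0.1 in 33 of 37 strains. Alternatives covered the batch term, each batch, strain as a block, the methods' t-test, normalization, dim probesets, BXD63, the parental strains, Spearman rho, another reference gene and the choice of probeset. Limma with Myh7 as a covariate, the chromosome 3 Tpm3 probeset and the fits and ranges without BXD56 were added after the data were seen. Promoter windows came from a RefSeq table of build GRCm38.p6, which held none for Atp2a2.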

Additional observations from a re-analysis of the deposited data

How the results depend on the processing

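Of 62 recounts of the genes called, 51 stayed within 1.5 times the main count. Genes higher on HFD numbered 2, but 1 in batch 1 alone, 0 in batch 2 alone and 1 with the mean of all probesets of a gene. The gene called between diets by r, Tpm3, was lost (0 called) with both arrays in batch 1, with arrays in different batches and with the mean of all probesets. Genes correlated with Myh7 on CD numbered 9, but 5 in batch 1 alone. On HFD they numbered 6, but 0 with batch means kept, 0 by Spearman rho, 0 in batch 1 alone and 0 in batch 2 alone, where the smallest possible p limits the calls. With strain as a replicate block, 2 of the 10 slow genes were higher and 0 lower on HFD, and the block changed no diet call of these 10 genes. Of the 102 genes of the other lists, the block left the diet calls of all but 6 as they were: Mybpc1 (adjusted p = 0.0172), Rcan1 (0.0359), Ldb3 (0.0256), Lyz2 (0.0173) and Col3a1 (0.0394) were called with it, and Cnn1 (0.0901) was lost.

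The range of a gene across strains moved by more than 1 SD in 13 of 20 cases when taken between the 10th and 90th percentiles, for example on HFD from 2.963 to 1.678 for Myh7 and from 2.299 to 0.747 for Casq2, and in 2 of 10 on HFD without BXD56. A range between percentiles is narrower by construction. Directions held in most single values, 115 of 121 diet differences and 125 of 131 correlations between diets. The diet difference of Myh7 turned to 0.075 and that of Myoz2 to 0.027 in batch 1, that of Atp2a2 to -0.063 in batch 2, that of Myoz2 to 0.009 without BXD56, and that of Tpm3 to -0.033 with the mean of all probesets and -0.188 with the chromosome 3 probeset. The correlation between diets turned with both arrays in batch 1 for Myh7 (-0.073), Tnnc1 (-0.04) and Myl2 (-0.14), and with arrays in different batches for Myh7 (-0.091), Tnni1 (-0.076) and Myl3 (-0.023). The batches hold fewer arrays, and other causes were not tested. No background level was measured here, so how far a dim probeset, such as the second of Myh7, lay above background was not tested.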
